A study of Rattus norvegicus with 12 samples.

Results

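The lungs of rats with banded aortas were compared with those of sham-operated rats when both had been given the drug ketotifen. The comparison took the 6 arrays whose labels name ketotifen as the treatment, out of 12 in the series: 3 from banded rats, labelled CHF+Keto for congestive heart failure, and 3 from sham-operated rats, labelled Sham+Keto. The remaining 6 arrays are from the same 2 operations with placebo (here called CHF+Placebo and Sham+Placebo, 3 arrays each). The design text calls the heart failure rats of this arm untreated. Values of these 6 arrays are described mainly where the surgery difference of the 2 arms is set side by side. The 6 arrays also entered the filter on low values and the shared estimate of spread. Standard errors and adjusted p-values of the main fit therefore draw on all 12 arrays.

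All animals were male Sprague-Dawley rats, juvenile at surgery with a body weight of 91 ± 9 g, and lungs were taken 9 weeks later. In CHF+Keto rats a clip had been placed around the aorta above the coronary arteries, and Sham+Keto rats had the same operation without a clip. Both groups drank ketotifen fumarate (1 mg/kg of body weight daily), so a drug effect common to banded and sham rats is not seen in this comparison. RNA of the whole lung was measured on 1 Affymetrix rat genome array per lung, and the design text gives 3 rats per arm. By the design text the banded rats had developed failure of the left heart, in which ejection fraction was preserved, together with pulmonary hypertension, and the title asks about the role of mast cells.

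When the left ventricle cannot fill at normal pressure, blood backs up into the pulmonary veins and capillaries. The raised pressure stretches the endothelium, lets fluid and red cells leak into the alveoli, draws in macrophages and over time remodels the vessel wall. Ketotifen holds mast cells back from releasing their granules and blocks the H1 histamine receptor.

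The deposited values are log2 expression per probe set, and values below about 4 lie near the background of the array. A difference between groups is given on the log2 scale, CHF+Keto minus Sham+Keto, with its standard error (SE), and a probe set or gene is said to have risen, fallen or been called when limma's adjusted p was under 0.05 over 16536 probe sets. For list members and gene counts the brightest probe set of each gene stands for it. Precision is set by the number of arrays, since arrays have no sequencing depth. Whole lung is a mixture, so that fewer cells of a type and less RNA per cell cannot be told apart in any of the values that follow.

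Several arrays stood apart. Values of CHF+Keto lungs 1 and 3 differed with an SD of only 0.258 over the probe sets (r = 0.993), though they were not identical, whereas the SD was at least 0.397 for all other pairs of arrays in the series. Whether the 2 arrays share an RNA extract was not tested; if they do, CHF+Keto holds 2 independent samples, and the SEs and p-values given for 3 are too small. Cardiomyocyte genes had a mean log2 level of 3.91, 3.75 and 3.82 in CHF+Keto lungs 1 to 3 and of 6.21, 9.07 and 3.54 in Sham+Keto lungs 1 to 3, and the atrial genes Myl7 and Myh6 were at 2.06 to 2.91 in all 3 CHF+Keto lungs and in Sham+Keto lung 3, against 8.29 to 11.39 in Sham+Keto lungs 1 and 2. The 3′ minus 5′ difference of the beta-actin control, which widens as RNA degrades, was 2.94, 3.41 and 2.90 in CHF+Keto and 2.91, 4.52 and 3.30 in Sham+Keto lungs. In the whole series each array had 15809 to 16056 probe sets at or above log2 of 4.

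Heart failure under ketotifen went with a broad change of the lung transcriptome. Limma called 2145 of 16536 probe sets (13%), 1052 higher (6.36%) and 1093 lower (6.61%) in CHF+Keto lungs, which name 828 genes higher and 721 lower, with 5 genes that had probe sets called in both directions. At an unadjusted p under 0.05 there were 5149 probe sets. Differences ran wider upward: 1139 called probe sets (6.89% of all) differed by at least 1 on the log2 scale, 73 were higher by at least 3 and 23 lower by at least 3, and the median difference was 1.14 among those that rose and -0.97 among those that fell. The 3 CHF+Keto values lay apart from the 3 Sham+Keto values in 40.1% of all probe sets. Counted by gene, 7.62% of 9788 genes were called higher and 6.5% lower with a median difference of 0.00, and these are the shares against which the gene groups that follow are read.

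The calls depended on few lungs. With each of the 6 lungs left out in turn limma called between 766 (without CHF+Keto lung 2) and 1121 probe sets (without Sham+Keto lung 2), and 557 probe sets were called in all 6 runs, 327 higher and 230 lower. With CHF+Keto lungs 1 and 3 averaged into a single sample 953 were called, each of them among the 2145. With Sham+Keto lungs 1 and 2 left out, so that lung 3 alone stood for the sham rats and was assumed to vary like the other groups, 76 were called, 72 of them among the 2145, while every called probe set kept its direction. The kept direction follows in part from the calling, since Sham+Keto lung 3 and the CHF+Keto lungs were among the arrays that gave the calls. A gene described here as called in every run is one of the 557.

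**Figure D1:**
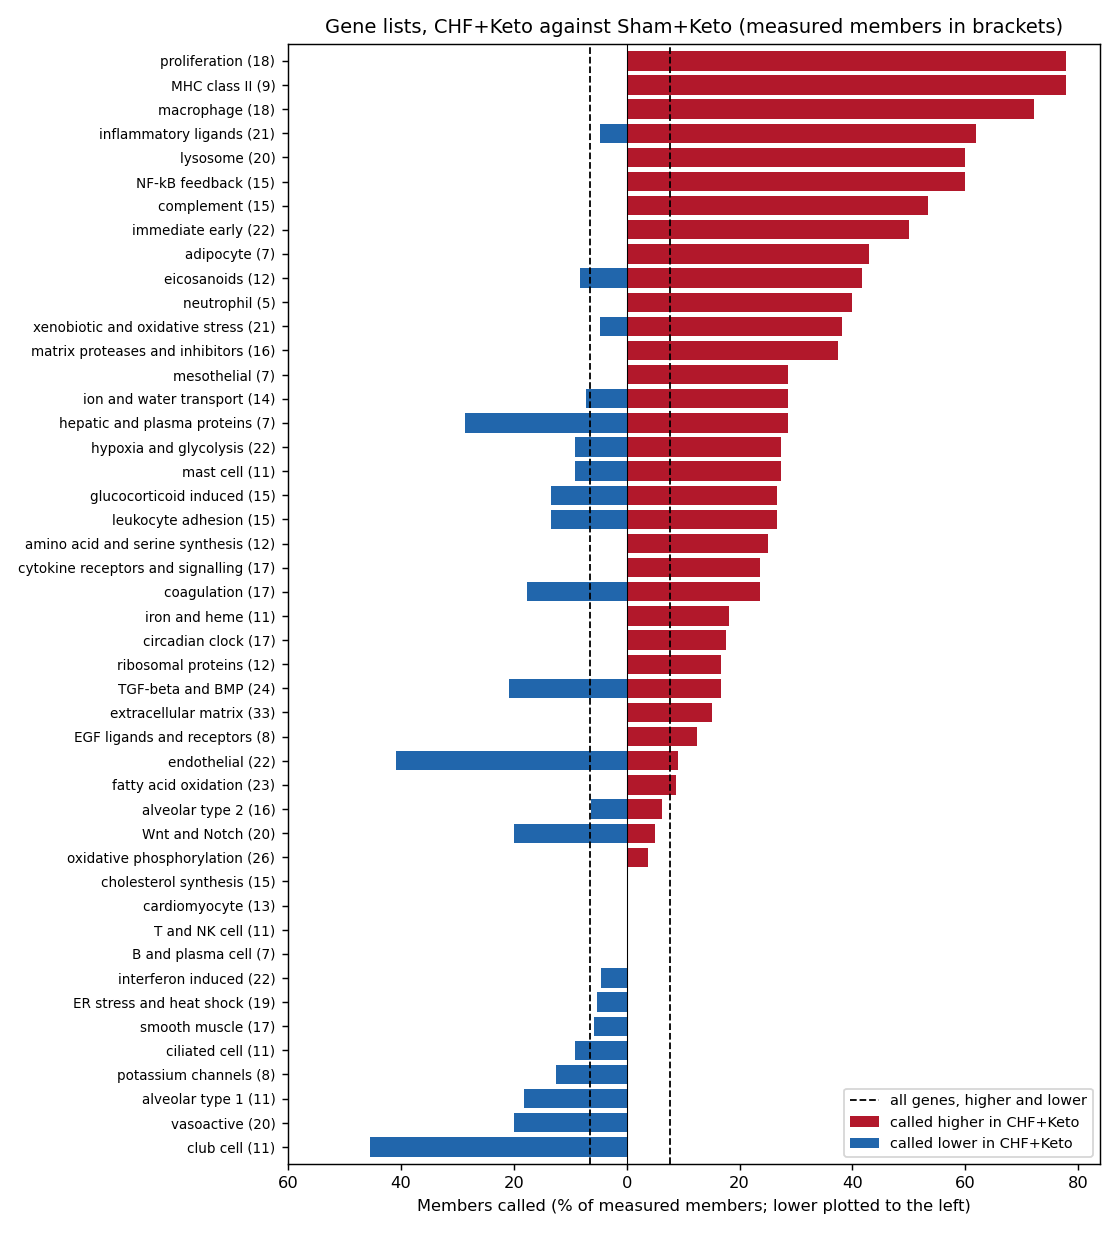
Share of the measured members of each gene list called higher (red, right) and lower (blue, left) in CHF+Keto against Sham+Keto lungs, in percent of measured members, for lists of at least 5 measured genes, with their number in brackets. Dashed lines mark the shares over all genes, 7.62% higher and 6.5% lower; proliferation, MHC class II and macrophage genes stand at the high end and club cell and endothelial genes reach furthest to the left.

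Of 21 measured cytokine and chemokine genes 13 rose and 1 fell, with a median difference of 2.61, against 7.62% and 6.5% of all genes, and 11 of the 13 rose in every run. The list has 27 genes on the array, of which Cxcl6, Cxcl11, Csf3, Lif, Il11 and Il10 were below the filter. Ccl7 and Cxcl2 passed the filter through the CHF+Keto lungs alone, so the share that rose depends in part on the filter. Interleukin 6, chemokines that bind CCR2 and CXCR2, and tumor necrosis factor are made within hours of tissue injury by macrophages, endothelium and fibroblasts, and many of their genes are switched on by the transcription factor NF-kB. To let the regulatory sequence be read beside the values, the promoters of 3 ligand genes and of the NF-kB co-regulator Nfkbiz are given as RefSeq has them on build GRCr8, from 250 bases before to 50 bases after the gene start, in lower case 5′ to 3′ on the strand of the gene. Capitals mark matches to an NF-kB motif (3 G, any 2 bases, 3 T and 2 C, or the reverse complement of this) and to the cyclic AMP response element TGACGTCA, which reads the same on both strands; no match overlaps another in these windows. The windows are chr4:5894526-5894825 (minus strand) for Il6, chr14:17479272-17479571 (minus strand) for Cxcl1, chr14:17467206-17467505 (minus strand) for Cxcl2 and chr11:58251471-58251770 (plus strand) for Nfkbiz.
Il6: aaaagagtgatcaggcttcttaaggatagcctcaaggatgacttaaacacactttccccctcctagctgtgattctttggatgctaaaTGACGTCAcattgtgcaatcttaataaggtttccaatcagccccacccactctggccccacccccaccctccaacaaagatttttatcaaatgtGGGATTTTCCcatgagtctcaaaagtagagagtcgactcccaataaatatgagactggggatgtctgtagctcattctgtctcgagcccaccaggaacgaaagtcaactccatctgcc
Cxcl1: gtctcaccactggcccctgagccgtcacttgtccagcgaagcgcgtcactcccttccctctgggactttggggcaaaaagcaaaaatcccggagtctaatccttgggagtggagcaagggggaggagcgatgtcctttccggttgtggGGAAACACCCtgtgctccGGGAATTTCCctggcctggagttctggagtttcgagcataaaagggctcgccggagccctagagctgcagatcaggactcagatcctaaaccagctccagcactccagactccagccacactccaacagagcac
Cxcl2: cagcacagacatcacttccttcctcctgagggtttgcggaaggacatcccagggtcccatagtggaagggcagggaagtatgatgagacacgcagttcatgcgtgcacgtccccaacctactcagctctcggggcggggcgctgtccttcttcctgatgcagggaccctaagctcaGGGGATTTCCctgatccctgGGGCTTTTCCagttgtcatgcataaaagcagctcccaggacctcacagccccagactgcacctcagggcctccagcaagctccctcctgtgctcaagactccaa
Nfkbiz: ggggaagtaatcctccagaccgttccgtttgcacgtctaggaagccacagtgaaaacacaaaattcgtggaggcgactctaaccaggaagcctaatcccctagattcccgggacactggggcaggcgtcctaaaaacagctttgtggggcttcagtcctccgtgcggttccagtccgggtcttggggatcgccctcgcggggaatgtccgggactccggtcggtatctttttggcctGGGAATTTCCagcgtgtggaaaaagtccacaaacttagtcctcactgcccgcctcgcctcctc

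The NF-kB motif was present, on either strand, in 512 of 33469 RefSeq promoters of this length (1.53%). Among the inflammatory ligands that rose, 9 of 13 matched a promoter entry and 4 of the 9 held it (Il6, Cxcl1, Cxcl2 and Ccl9). Of the 9 NF-kB feedback genes that rose, 8 had an entry and 4 held it (Nfkbiz, Tnfaip3, Nfkb1 and Nfkb2), as did 0 of the 6 immediate early genes that rose and had an entry. The cyclic AMP element was in 612 promoters (1.83%), in 1 of the 9 ligand promoters (Il6), 0 of the 8 and 1 of the 6 (Maff). The feedback list was made of genes that NF-kB induces, so a share above 1.53% follows in part from how it was chosen. List members that did not rise were not counted. The 4 promoters printed all hold the motif, whereas 4 of the 9 ligand promoters do. A match is a description of the letters and shows neither binding nor a cause.

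Il6, whose protein drives the acute phase response, stood at 11.23, 11.21 and 10.58 in CHF+Keto lungs, against 2.54, 2.53 and 2.51 in Sham+Keto lungs. All 3 Sham+Keto lungs sat at the background of the array and far below the CHF+Keto lungs, so the direction was clear and the size of the difference (8.48 ± 0.67 SE, adjusted p = 7.92e-05) was not. Ccl7, a monocyte attractant, had 8.91, 8.95 and 8.33 in CHF+Keto lungs and 2.82, 2.83 and 2.77 in Sham+Keto lungs (difference 5.92 ± 0.20, adjusted p = 1.72e-07). Cxcl2, a neutrophil attractant, had 8.47, 8.05 and 7.75 in CHF+Keto lungs and 2.23, 2.57 and 2.26 in Sham+Keto lungs (5.73 ± 0.21, adjusted p = 2.11e-07). The related Cxcl1 was well above background in both groups, with 12.07, 12.03 and 12.22 in CHF+Keto lungs and 7.36, 7.87 and 7.87 in Sham+Keto lungs, a 21.1-fold difference (adjusted p = 2.75e-05). For these genes the lungs of each group lay close together and the groups were far apart.

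Other ligands rose less evenly. Ccl3, a macrophage chemokine, had 9.34, 11.45 and 8.90 in CHF+Keto lungs and 6.13, 6.45 and 6.08 in Sham+Keto lungs, and Tnf had 5.64, 9.25 and 4.13 against 2.68, 2.68 and 2.66. CHF+Keto lung 2 was the highest for both, and the Tnf call (adjusted p = 0.0295) held in 2 of 6 runs. Il1b rose 6.10-fold (adjusted p = 0.00505), Ccl9, a chemokine gene of mouse and rat macrophages, 19.6-fold (adjusted p = 0.00428), and the interferon-gamma responsive chemokine Cxcl10 by 3.27 ± 0.39. Osm, an interleukin 6 family cytokine, rose by 1.93 ± 0.25, Ccl4 by 2.63 ± 0.53, and Cxcl9 by 2.32 ± 0.51. The exception was Il33, an alarmin that epithelium and endothelium hold in store: it fell 5.56-fold, with 9.60, 9.29 and 9.68 in CHF+Keto lungs and 12.04, 12.26 and 11.69 in Sham+Keto lungs (adjusted p = 0.012), and was called in every run.

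**Figure D2:**
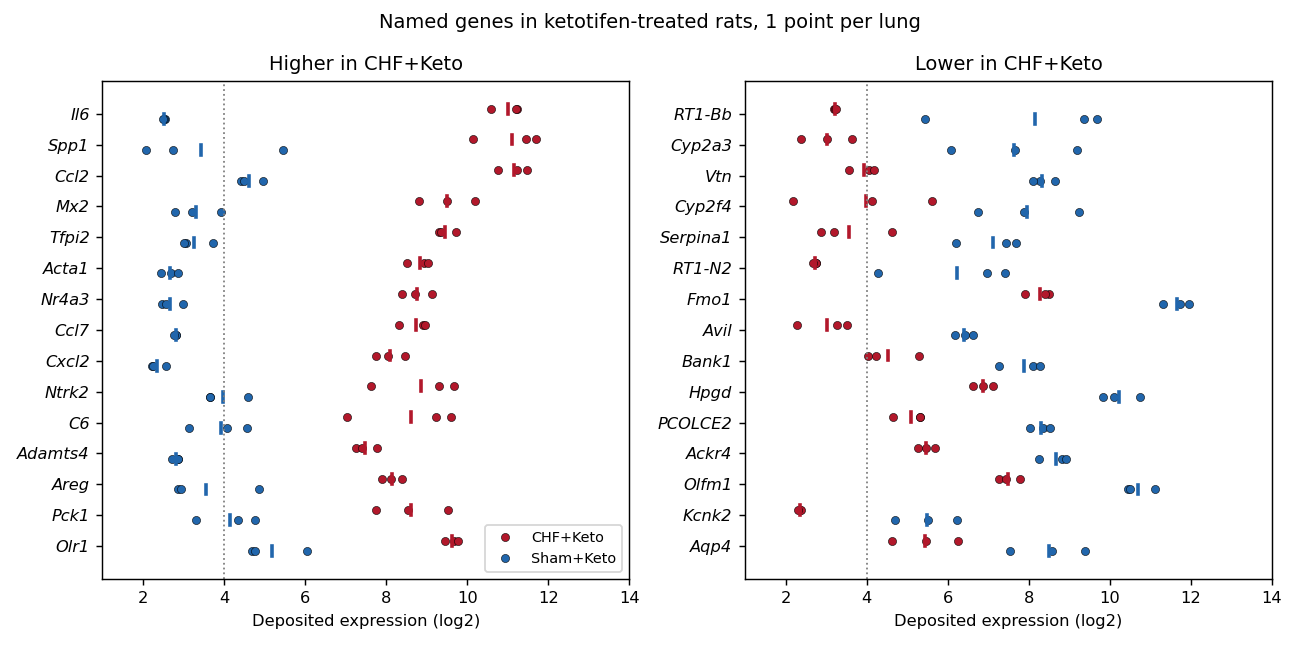
Log2 expression of the 15 genes of largest difference in each direction (named by the rule in the processing notes), 1 point per lung, CHF+Keto in red above Sham+Keto in blue, short bars for group means and a dotted line at log2 of 4. Points of the 2 groups do not overlap; for Il6, Acta1, Ccl7 and Cxcl2 all Sham+Keto lungs lie left of the line, and for RT1-Bb and RT1-N2 Sham+Keto lung 3 lies apart from lungs 1 and 2.

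Of 17 cytokine receptor and signalling genes 4 rose and 0 fell (median 0.57). They were Il1r2, the decoy receptor for interleukin 1 (5.66, 4.62 and 5.54 in CHF+Keto lungs against 2.66, 2.55 and 2.49 in Sham+Keto lungs), Il1rn, the interleukin 1 receptor antagonist (2.57 ± 0.31), Socs3, the feedback inhibitor of interleukin 6 signalling (3.14 ± 0.41), and the tumor necrosis factor receptor Tnfrsf1a (0.79 ± 0.14). Il6r, the interleukin 6 receptor itself, gave -0.03 ± 0.34 (adjusted p = 0.965).

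Of 15 genes that NF-kB induces and that mostly restrain it, 9 rose and 0 fell (median 0.80), 7 of them in every run. Bcl3, a nuclear NF-kB partner, had 6.96, 7.42 and 7.68 in CHF+Keto lungs and 5.04, 5.40 and 4.87 in Sham+Keto lungs (adjusted p = 0.000329). Nfkbiz had 9.88, 9.88 and 9.85 in CHF+Keto lungs and 8.13, 7.99 and 8.39 in Sham+Keto lungs (adjusted p = 0.000411). Tnfaip3, which removes ubiquitin from the receptor complex, rose 5.40-fold, and Zc3h12a, a nuclease that degrades cytokine transcripts, 3.16-fold. The NF-kB subunits Nfkb1 and Nfkb2 rose 1.41-fold and 1.42-fold and lost the call in all 6 runs.

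Immediate early genes are transcribed without new protein synthesis after almost any stimulus. Of 22 measured 11 rose and 0 fell, with a median difference of 1.12, and 7 of the 11 rose in every run. The mean level of the list was 9.72 to 9.94 in CHF+Keto lungs and 8.35 to 8.96 in Sham+Keto lungs, with Sham+Keto lung 2 the highest of its group. Nr4a3, an orphan nuclear receptor, had 9.14, 8.40 and 8.71 in CHF+Keto lungs and 2.48, 2.99 and 2.57 in Sham+Keto lungs, a difference of 6.07 ± 0.41, and a dimmer probe set of the gene gave 5.42. Fosb had 7.46, 8.02 and 6.54 in CHF+Keto lungs and 2.87, 3.00 and 3.10 in Sham+Keto lungs. For both genes the sham values were at background and the groups were widely separated. Fosb passed the filter through the CHF+Keto lungs alone, so the share of the list that rose depends in part on the filter.

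Ier3 (1.89 ± 0.15, adjusted p = 6.16e-05) and Myc (2.19 ± 0.24, adjusted p = 0.000774), both well expressed in sham lungs, rose 3.72-fold and 4.57-fold. Egr2, Atf3 and Nr4a2 rose in every run, whereas Fos (adjusted p = 0.0472), Maff (0.0276) and Nr4a1 (0.0451) kept the call in 1, 2 and 0 of 6 runs. Egr1 and Jun, the most familiar members, gave 1.05 ± 0.65 and -0.23 ± 0.26 and were not called. Fos had 11.31, 10.42 and 10.81 in CHF+Keto lungs and 9.39, 10.39 and 9.28 in Sham+Keto lungs, so that Sham+Keto lung 2 all but reached CHF+Keto lung 2.

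Growth factor, clotting and protease genes were among those of largest difference. Areg, a ligand of the EGF receptor, had 8.40, 8.13 and 7.90 in CHF+Keto lungs and 2.88, 2.94 and 4.86 in Sham+Keto lungs, and was the 1 of 8 EGF ligand and receptor genes called. Tfpi2, a serine protease inhibitor of the extracellular matrix, had 9.72, 9.29 and 9.37 in CHF+Keto lungs and 3.07, 3.73 and 3.00 in Sham+Keto lungs. Among 17 coagulation genes 4 rose and 3 fell: Tfpi2, the urokinase receptor gene Plaur (4.11 ± 0.55), Procr and S100a10 rose, while the anticoagulant endothelial genes Thbd (-0.80 ± 0.15) and Tfpi (-0.91 ± 0.25) and the von Willebrand factor gene Vwf (-1.55 ± 0.36) fell. The tissue factor gene F3 gave 1.43 ± 0.47 and was not called (adjusted p = 0.0678).

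Of 18 macrophage markers 13 rose and 0 fell, with a median difference of 1.95, and their mean level was 9.64 to 9.85 in CHF+Keto lungs, against 7.48 to 7.71 in Sham+Keto lungs. Only 6 of the 13 rose in every run. Trem2, a lipid receptor of tissue macrophages, had 6.35, 8.30 and 6.30 in CHF+Keto lungs and stayed at 2.79, 2.64 and 2.48 in Sham+Keto lungs. C1qa, the first complement component that macrophages make, had 9.98, 9.52 and 10.05 in CHF+Keto lungs and 7.75, 7.42 and 7.35 in Sham+Keto lungs (adjusted p = 0.00363). Spp1 (osteopontin) had 11.46, 11.70 and 10.14 in CHF+Keto lungs, against 2.07, 2.75 and 5.45 in Sham+Keto lungs, which differed among themselves more than most genes (SD 1.79). Lgals3, Cd14 and the bone and macrophage cathepsin Ctsk also rose in every run, and Mrc1 and Gpnmb lost the call in all 6 (adjusted p = 0.0414 and 0.0431). The scavenger receptor Olr1 rose by 4.46 ± 0.74.

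Of 20 lysosomal genes 12 rose and 0 fell (median 0.83): Ctss rose 3.31-fold, Ctsd 2.77-fold and Npc2, at 14.57, 14.72 and 14.53 in CHF+Keto lungs against 13.48, 13.49 and 13.80 in Sham+Keto lungs, 2.02-fold. Of these 12 only 2, Ctsk and Ctss, were called in every run. Among 9 genes of MHC class II presentation 7 rose and 0 fell (median 1.07), 3 of them in every run. RT1-Db1, a class II beta chain, had 11.82, 11.81 and 11.89 in CHF+Keto lungs and 10.72, 10.95 and 10.63 in Sham+Keto lungs (adjusted p = 0.00106), and the peptide exchange gene RT1-DMb rose 3.50-fold. Related RT1 genes share sequence, so that the values of single members are uncertain.

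Of 15 complement genes 8 rose and 0 fell (median 1.49), among them the proteases C1s (1.16 ± 0.17) and C1r (0.58 ± 0.14), all 3 chains of C1q, and C6 of the terminal complex, which had 9.59, 7.04 and 9.24 in CHF+Keto lungs and 4.56, 4.08 and 3.14 in Sham+Keto lungs. Only 3 of the 8 rose in every run. Of 11 iron and heme genes 2 rose: Hmox1, which breaks down heme, had 10.57, 10.75 and 9.97 in CHF+Keto lungs and 6.04, 7.01 and 7.46 in Sham+Keto lungs (12.1-fold, adjusted p = 0.00579), and the iron exporter Slc40a1 rose 3.27-fold. Hbb, beta globin, rose 6.02-fold with 12.96, 12.75 and 12.89 in CHF+Keto lungs against 10.99, 9.67 and 10.16 in Sham+Keto lungs (adjusted p = 0.027), and Alas2, the erythroid heme synthesis gene, gave 2.33 ± 0.96 and was not called. Of 9 red cell genes on the array 6 were below the filter, and the part of blood content in these values was not tested.

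Of 18 measured cell division genes 14 rose (median 2.01), 10 of them in every run, and 0 fell. The list averaged 6.71 to 7.02 in CHF+Keto lungs and 5.04 to 5.14 in Sham+Keto lungs, where the 3 lungs were nearly equal. Cdk1, the kinase that starts mitosis, had 7.22, 7.01 and 7.28 in CHF+Keto lungs and 3.94, 4.20 and 4.02 in Sham+Keto lungs (8.68-fold, adjusted p = 0.00508). Ccnb2, a cyclin that partners it, had 8.02, 7.44 and 7.85 in CHF+Keto lungs and 4.84, 5.46 and 5.43 in Sham+Keto lungs. Mki67, the antigen used to count dividing cells, rose 4.11-fold, Top2a 3.75-fold, and the replication helicase subunits Mcm2 and Mcm6 2.41-fold and 2.06-fold. Which cells divided cannot be read from whole lung.

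**Figure D3:**
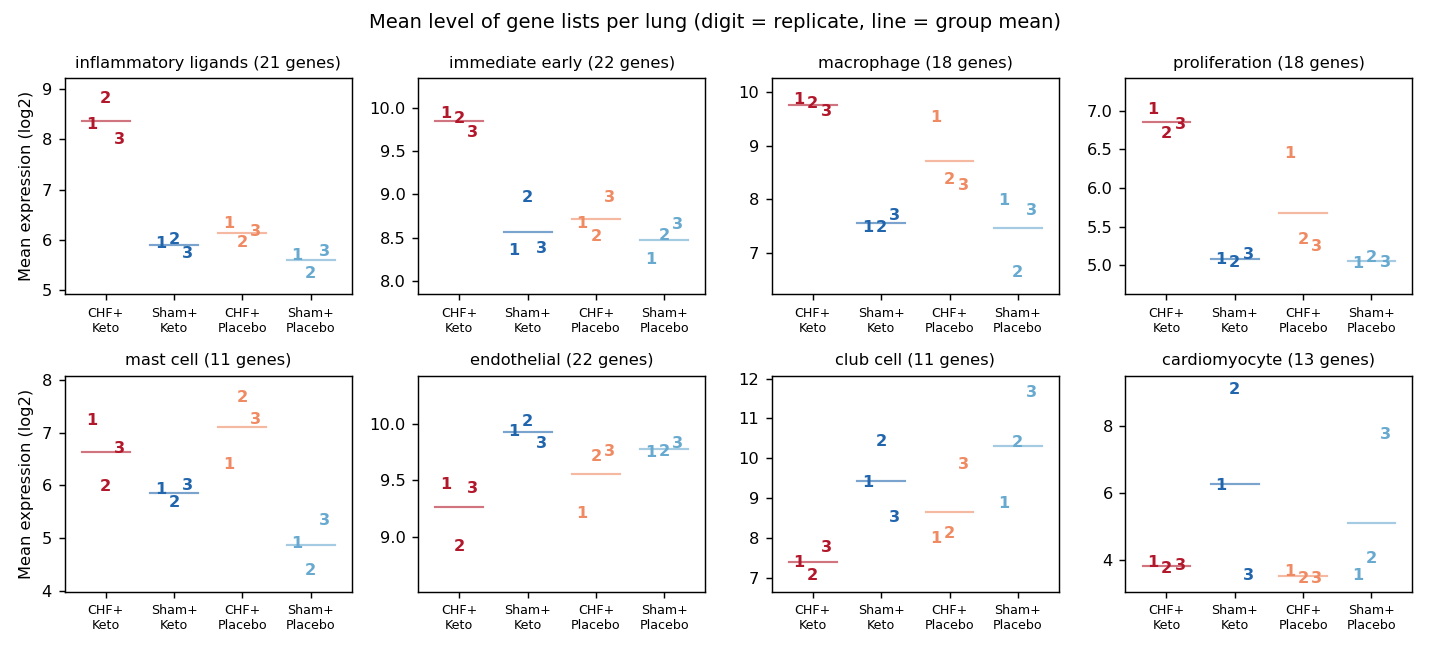
Mean log2 expression of 8 gene lists in each lung of all 4 groups (CHF+Keto, Sham+Keto, CHF+Placebo, Sham+Placebo), each digit 1 lung by its replicate number and each line a group mean; the axes differ between panels and do not start at 0. CHF+Keto lungs lie above Sham+Keto lungs for inflammatory ligands, immediate early, macrophage and proliferation genes and below them for endothelial and club cell genes; CHF+Placebo lung 1 lies near the CHF+Keto lungs for macrophage and proliferation genes, and cardiomyocyte genes are high in Sham+Keto lungs 1 and 2 and Sham+Placebo lung 3.

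Matrix genes rose at few places. Of 33 structural matrix genes 5 rose and 0 fell (median 0.52): Spp1, the basement membrane collagen Col15a1, Ccn1, fibronectin (Fn1) and elastin (Eln). Col15a1 had 10.18, 9.64 and 10.04 in CHF+Keto lungs and 7.51, 7.56 and 7.65 in Sham+Keto lungs, a 5.20-fold difference (adjusted p = 0.0151). The fibrillar collagens Col1a1 (0.28 ± 0.31) and Col3a1 (0.08 ± 0.26) were not called. Of 16 genes of matrix proteases and their inhibitors 6 rose and 0 fell. Adamts4, an aggrecan-cleaving protease, had 7.77, 7.25 and 7.41 in CHF+Keto lungs and 2.87, 2.86 and 2.73 in Sham+Keto lungs (adjusted p = 2.75e-05). Timp1, an inhibitor of matrix metalloproteinases, had 11.80, 11.42 and 11.83 in CHF+Keto lungs and 8.59, 9.01 and 8.95 in Sham+Keto lungs (7.13-fold, adjusted p = 0.000453).

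The mast cell list was mixed in this comparison. Of 11 measured members 3 rose and 1 fell, with a median of 0.99. Cma1, mast cell chymase, had 8.14, 6.78 and 7.46 in CHF+Keto lungs and 4.25, 4.35 and 4.84 in Sham+Keto lungs (7.92-fold, adjusted p = 0.00579), and Mcpt1l1, a related protease, rose 5.67-fold (adjusted p = 0.0146); both were called in every run. Fcer1a, the alpha chain of the IgE receptor, rose 2.31-fold (adjusted p = 0.0493) and lost the call in all 6 runs. The granule carboxypeptidase Cpa3 had 8.12, 5.94 and 6.87 in CHF+Keto lungs and 6.27, 5.22 and 6.10 in Sham+Keto lungs, which overlap, and Kit and Hdc gave -0.59 ± 0.61 and -0.61 ± 0.28. The member that fell, Gata2 (-1.90 ± 0.38), is a transcription factor of mast cells and also of endothelium. Ms4a2, the beta chain of the IgE receptor, was below the filter.

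Of 5 neutrophil genes 2 rose, Il1r2 and Lcn2 (7.38-fold, adjusted p = 0.0448), both also made by other cells. The neutrophil-rich alarmins S100a8 (1.31 ± 0.78) and S100a9 (0.92 ± 0.69) were not called. None of 7 B and plasma cell genes (median -0.01) or of 11 T and natural killer cell genes (median -0.92) was called by limma, with 1 and 0 at an unadjusted p under 0.05; their members of smallest p were Jchain (1.33 ± 0.48, adjusted p = 0.0863) and Cd3g (-0.76 ± 0.38, adjusted p = 0.201). Of 15 adhesion genes 4 rose and 2 fell (median 0.06). Sele, the E-selectin that inflamed endothelium displays, had 5.15, 6.61 and 4.89 in CHF+Keto lungs and 2.81, 3.06 and 2.63 in Sham+Keto lungs (adjusted p = 0.00235), and Selp, P-selectin, rose 3.82-fold, whereas Icam2 and Jam2 of resting endothelium fell.

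Interferon-induced genes did not rise as a group: of 22 measured 0 rose and 1 fell, Ifit1, an antiviral RNA-binding protein (3.35, 3.31 and 3.34 in CHF+Keto lungs against 6.05, 6.10 and 4.93 in Sham+Keto lungs). The list median was -0.22 and turned to 0.79 with Sham+Keto lungs 1 and 2 left out. Psmb9 and Psmb8, immunoproteasome subunits, had their 2 highest sham values in those same lungs (10.58 and 10.64 for Psmb9, 10.34 and 10.39 for Psmb8), and neither was called. Mx2 had a probe set that rose to 10.20, 8.81 and 9.51 in CHF+Keto lungs, against 3.93, 3.22 and 2.78 in Sham+Keto lungs, while a second probe set of the same gene, in the list count because it is brighter, gave -0.87 ± 0.44 (adjusted p = 0.205). Both signals are annotated to Mx2, and which of them follows its transcript was not tested.

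Of 22 endothelial genes 9 fell and 2 rose, with a median of -0.70, against 6.5% lower and 7.62% higher over all genes. In every run 4 of the 9 fell and 1 of the 2 rose. Kdr, the main receptor for vascular endothelial growth factor, had 11.31, 10.52 and 11.27 in CHF+Keto lungs and 12.84, 12.90 and 12.61 in Sham+Keto lungs (3.37-fold lower, adjusted p = 0.00738). Cldn5, a tight junction gene, had 11.77, 11.15 and 11.77 in CHF+Keto lungs and 13.13, 12.75 and 12.73 in Sham+Keto lungs (2.48-fold lower, adjusted p = 0.00447). In both genes all 3 CHF+Keto lungs were below all 3 Sham+Keto lungs and CHF+Keto lung 2 was lowest.

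Car4, a carbonic anhydrase of alveolar capillaries, fell 5.35-fold, Esm1 4.15-fold, Plvap of the fenestral diaphragm 2.26-fold, and the angiopoietin receptor Tek 2.71-fold. Emcn (2.15-fold) and Egfl7 (3.23-fold) rose, and the pan-endothelial Pecam1 gave -0.15 ± 0.19 (adjusted p = 0.611). Endothelial markers thus differed in direction. Vegfa, the ligand, and Epas1, an oxygen-sensing transcription factor of lung endothelium and epithelium, fell as well, by 1.54 ± 0.30 and 0.94 ± 0.17, within a hypoxia and glycolysis list of 22 genes of which 6 rose and 2 fell. The list's rises were glycolytic or stress genes (Ndrg1, Ldha, Pfkfb4, Pgk1, Eno1, Slc2a1) of 0.61 to 1.12 on the log2 scale.

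Genes that set vascular tone fell or did not pass. Of 20 vasoactive genes 4 fell and 0 rose (median -0.62). Vipr1, the receptor for the dilator vasoactive intestinal peptide, had 11.82, 11.29 and 11.96 in CHF+Keto lungs and 13.70, 13.72 and 13.50 in Sham+Keto lungs (3.86-fold lower, adjusted p = 0.00443, called in every run). Npr1, the receptor of the natriuretic peptides, fell 1.79-fold, the serotonin transporter Slc6a4 3.11-fold, and Ramp2, the adrenomedullin receptor partner, 2.06-fold, the last without a call in any of the 6 runs. Edn1 (endothelin 1) gave 0.09 ± 0.57 and was not called, with CHF+Keto lung 2 at 7.67 and lungs 1 and 3 at 9.75 and 9.70.

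In TGF-beta and BMP signalling 4 of 24 genes rose and 5 fell (median -0.24). The BMP receptors Bmpr2 (2.71-fold lower, adjusted p = 0.035) and Acvrl1 (1.83-fold lower), the ligand Bmp6, the inhibitory Smad6 and the signal carrier Smad3 fell. Bmp6 had 9.92, 9.66 and 9.58 in CHF+Keto lungs and 10.62, 10.73 and 10.42 in Sham+Keto lungs. On the other side Tgfb1, its receptor Tgfbr1 and Ltbp2 rose 1.96-fold, 2.24-fold and 3.29-fold, and Fst, which binds activin, rose 11.9-fold with 9.55, 9.19 and 9.59 in CHF+Keto lungs against 5.98, 6.33 and 5.29 in Sham+Keto lungs. Bmp6, Smad6 and Fst were called in every run. Of 20 Wnt and Notch genes 4 fell (Axin2, Dll4, Notch1 and Jag1), 1 rose (Dkk3) and 15 were not called (median -0.30). Axin2, a target gene of Wnt signalling, fell 3.74-fold, and Dll4, an endothelial Notch ligand, 5.07-fold.

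The enzymes of prostaglandin and leukotriene metabolism shifted in opposite directions at the 2 ends of the pathway. Ptgs2, the inducible cyclooxygenase, had 9.76, 9.27 and 10.21 in CHF+Keto lungs and 5.54, 5.75 and 6.39 in Sham+Keto lungs (14.4-fold, adjusted p = 0.00131). Hpgd, which inactivates prostaglandins, had 6.88, 6.62 and 7.12 in CHF+Keto lungs and 9.82, 10.75 and 10.10 in Sham+Keto lungs (10.2-fold lower, adjusted p = 0.00278), and its second probe set fell by 3.20. Neither gene had overlapping groups and both were called in every run. Of 12 genes measured 5 rose and 1 fell: Alox15, Tbxas1 (thromboxane synthase), Ptgs1 and Lta4h rose 4.13-fold, 3.88-fold, 1.74-fold and 2.01-fold.

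Of 11 club cell genes 5 fell and 0 rose, with a median of -1.77. The group mean lay at 7.05 to 7.76 in CHF+Keto lungs and between 8.52 and 10.41 in Sham+Keto lungs, and without Sham+Keto lungs 1 and 2 the median was -0.91. Aldh1a1, a retinal dehydrogenase, had 10.35, 10.14 and 10.26 in CHF+Keto lungs and 12.18, 12.16 and 11.73 in Sham+Keto lungs (3.41-fold lower, adjusted p = 0.0125), and Ces1d, a carboxylesterase, fell 1.93-fold; both were called in every run. The cytochrome P450 genes Cyp2a3 and Cyp2f4 had 3.02, 2.38 and 3.64 and 4.13, 2.17 and 5.62 in CHF+Keto lungs, against 7.66, 9.19 and 6.07 and 7.89, 9.24 and 6.75 in Sham+Keto lungs, and each kept the call in 1 of 6 runs. Scgb1a1, the secretoglobin that defines club cells, was near the top of the scale in every lung (-0.20 ± 0.11, adjusted p = 0.225).

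Of 11 ciliated cell genes 1 fell, Tppp3 (2.34-fold, adjusted p = 0.037), with a list median of -0.58. Of 11 alveolar type 1 genes 2 fell and 0 rose (median -0.84): Akap5, which had 8.05, 7.09 and 7.87 in CHF+Keto lungs and 9.36, 10.22 and 9.64 in Sham+Keto lungs, and the chloride channel gene Clic5. The type 1 markers Ager and Hopx gave -0.70 ± 0.42 and -0.64 ± 0.41 and were not called. Among 16 genes of surfactant-making type 2 cells 1 rose (the fatty acid transporter Cd36, 2.15-fold) and 1 fell (the lung transcription factor Nkx2-1, 1.65-fold). Sftpc, the surfactant protein that marks them, gave 0.10 ± 0.11. Aqp4, a water channel of airway epithelium, fell in its brighter probe set (5.46, 4.62 and 6.26 in CHF+Keto lungs against 7.53, 8.56 and 9.39 in Sham+Keto lungs, adjusted p = 0.0409, called in 0 of 6 runs) and not in a dimmer one (-1.71 ± 0.74).

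Of 21 measured genes of foreign compound and oxidant handling 8 rose, 1 fell and 12 were not called (median 0.45). Srxn1, which repairs oxidized peroxiredoxins, had 4.78, 5.16 and 4.42 in CHF+Keto lungs and 2.30, 2.11 and 2.08 in Sham+Keto lungs (adjusted p = 6.07e-05). Cyp1a1, the main target of the aryl hydrocarbon receptor, had 6.41, 6.46 and 7.98 in CHF+Keto lungs and 3.82, 2.13 and 2.87 in Sham+Keto lungs (adjusted p = 0.00106), and Tiparp, a second target, rose 2.80-fold. The metallothionein Mt2A rose 9.90-fold, with 10.79, 9.68 and 10.91 in CHF+Keto lungs against 7.53, 7.41 and 6.52 in Sham+Keto lungs. Cyp1a1 and Srxn1 sat at background in the sham lungs and were called in every run. Both passed the filter through the CHF+Keto lungs alone, so the share of this list that rose also depends in part on the filter.

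Fmo1, a flavin monooxygenase that oxidizes drugs and that was outside the lists, went the other way, with 8.49, 7.91 and 8.41 in CHF+Keto lungs and 11.94, 11.72 and 11.31 in Sham+Keto lungs (10.5-fold lower, adjusted p = 0.00687). Among 15 glucocorticoid-induced genes 4 rose and 2 fell. Sgk1 had 12.60, 11.78 and 12.67 in CHF+Keto lungs and 10.48, 10.51 and 10.44 in Sham+Keto lungs, whereas Klf15 and Tsc22d3 fell 3.36-fold and 2.92-fold, so the list had members of opposite direction. Of 17 clock genes the 3 transcriptional repressors Nfil3, Bhlhe40 and Bhlhe41 rose (2.83 ± 0.36, 2.48 ± 0.41 and 3.05 ± 0.56, each in every run), and the core genes Bmal1 (-0.15 ± 0.45) and Per1 (-0.09 ± 0.36) were not called.

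Lipid handling rose at single genes. Of 7 measured adipocyte genes 3 rose (median 1.92), Lpl, Pparg and Pck1, which other cell types also express. Lpl, lipoprotein lipase, had 13.36, 13.27 and 13.19 in CHF+Keto lungs and 11.85, 11.42 and 11.89 in Sham+Keto lungs (2.94-fold, adjusted p = 0.0116). Pck1 had 8.54, 7.76 and 9.52 in CHF+Keto lungs and 4.34, 4.76 and 3.32 in Sham+Keto lungs, and was not called in any of the 6 runs. Adipoq, Lep, Plin1, Plin4 and Cidec, which define fat cells, were below the filter. Of 26 oxidative phosphorylation genes 1 rose (median 0.27) and of 23 fatty acid oxidation genes 2 rose, against 7.62% of all genes. In the first list 13 of 26 genes were higher in CHF+Keto lungs without overlap, against 19.2% of all probe sets. Of 12 ribosomal protein genes 2 rose. Limma called 0 of 15 cholesterol synthesis genes (3 at an unadjusted p under 0.05), where Pmvk had the smallest adjusted p (0.0671). Arg1, arginase, rose 7.45-fold and the arginine carrier Slc7a1 2.96-fold among 12 amino acid genes of which 3 rose. Of 19 endoplasmic reticulum stress and heat shock genes 1 fell (Hsp90b1, 1.38-fold) and 0 rose.

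Muscle and plasma protein genes contained single large differences. Acta1, skeletal muscle actin, had 8.51, 8.94 and 9.03 in CHF+Keto lungs and 2.68, 2.86 and 2.44 in Sham+Keto lungs (adjusted p = 0.0128), while 11 of 13 skeletal muscle genes on the array were below the filter and Myh1 gave -0.49 ± 0.35. Of 17 smooth muscle genes 0 rose and 1 fell, Synm (synemin, 4.87-fold, adjusted p = 0.00278), with Acta2 at 0.69 ± 0.44 and Myh11 at -0.22 ± 0.47. Limma called 0 of the 13 cardiomyocyte genes (2 at an unadjusted p under 0.05), whose mean was high in Sham+Keto lungs 1 and 2 alone of the 6 lungs. Vtn, the plasma and matrix protein vitronectin, had 4.07, 4.17 and 3.57 in CHF+Keto lungs and 8.63, 8.27 and 8.11 in Sham+Keto lungs (21.1-fold lower, adjusted p = 0.00834), a tight separation held in every run. Serpina1, the antiprotease alpha-1 antitrypsin, had 3.19, 2.86 and 4.62 in CHF+Keto lungs and 7.69, 7.43 and 6.21 in Sham+Keto lungs and kept its call in 5 of 6 runs. In the same list of 7 liver and plasma protein genes Apoe (2.52-fold) and Fgg (2.83-fold) rose.

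Other genes of large difference included a rise and several falls. The neurotrophin receptor gene Ntrk2 rose (9.31, 7.62 and 9.68 in CHF+Keto lungs against 3.66, 4.58 and 3.67 in Sham+Keto lungs), and Olfm1, a secreted glycoprotein gene, fell (7.79, 7.25 and 7.45 against 10.45, 11.12 and 10.49), each with a second probe set called the same way. Ackr4, a chemokine scavenging receptor, had 5.28, 5.46 and 5.68 in CHF+Keto lungs and 8.26, 8.82 and 8.92 in Sham+Keto lungs. Bank1, a B cell scaffold gene, fell by 3.37 ± 0.64, PCOLCE2, an enhancer of procollagen processing, by 3.20 ± 0.63, Avil, an actin-binding villin relative, by 3.39 ± 0.72, and the potassium channel gene Kcnk2 by 3.14 ± 0.67, of which Avil, Kcnk2 and Ackr4 lost the call in at least 1 run.

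RT1-Bb and RT1-N2, of the rat major histocompatibility complex, need separate mention. The RT1-Bb probe set of largest fall had 3.19, 3.23 and 3.23 in CHF+Keto lungs and 9.35, 9.68 and 5.43 in Sham+Keto lungs, and RT1-N2 had 2.75, 2.74 and 2.69 against 7.41, 6.97 and 4.29. In both, Sham+Keto lungs 1 and 2 were far above lung 3, and with those 2 lungs left out the differences were -2.21 and -1.56 in place of -4.94 and -3.50. A brighter RT1-Bb probe set rose (12.64, 11.90 and 12.62 in CHF+Keto lungs against 10.96, 10.89 and 12.01 in Sham+Keto lungs, adjusted p = 0.0352). Its groups overlapped, and it kept the call in only 2 of the runs that left out single lungs. With Sham+Keto lungs 1 and 2 left out its difference was 0.38 in place of 1.10. Probe sets of this complex respond to which alleles a rat carries, and the genotype of these rats was not tested.

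The same surgery contrast in the placebo arm, measured in 6 other rats, gave fewer calls and mostly the same direction. There 28 probe sets passed limma's test (0.169%), with 3326 before adjustment at a p of 0.05, and 11 were called in both arms, 0.513% of the ketotifen calls and 39.3% of the placebo calls. Of the 1052 probe sets higher under ketotifen 960 were higher in CHF+Placebo than in Sham+Placebo lungs (91.2%, against 51.8% of all probe sets), and of the 1093 lower ones 918 were lower (84.0%, against 48.2%). The median placebo difference was 0.47 for the first set and -0.30 for the second, beside 1.14 and -0.97 under ketotifen. Since these probe sets were chosen by their ketotifen difference, smaller placebo medians follow in part from the choice and are no test of the arms.

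CHF+Placebo lung 1 weighed on this agreement. Across probe sets it was closer to CHF+Keto lungs 1 and 3 (r = 0.974 for each) than to CHF+Placebo lungs 2 and 3 (r = 0.966 and 0.947). Macrophage genes averaged 9.52 in it and 8.38 and 8.27 in CHF+Placebo lungs 2 and 3, proliferation genes 6.45, against 5.33 and 5.25, and Vtn 4.18, against 7.78 and 7.93. Without that lung, an alternative added after seeing the data, 75.5% of the 2145 probe sets kept the same sign in the placebo arm, and the median placebo differences were 0.28 and -0.14.

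**Figure D4:**
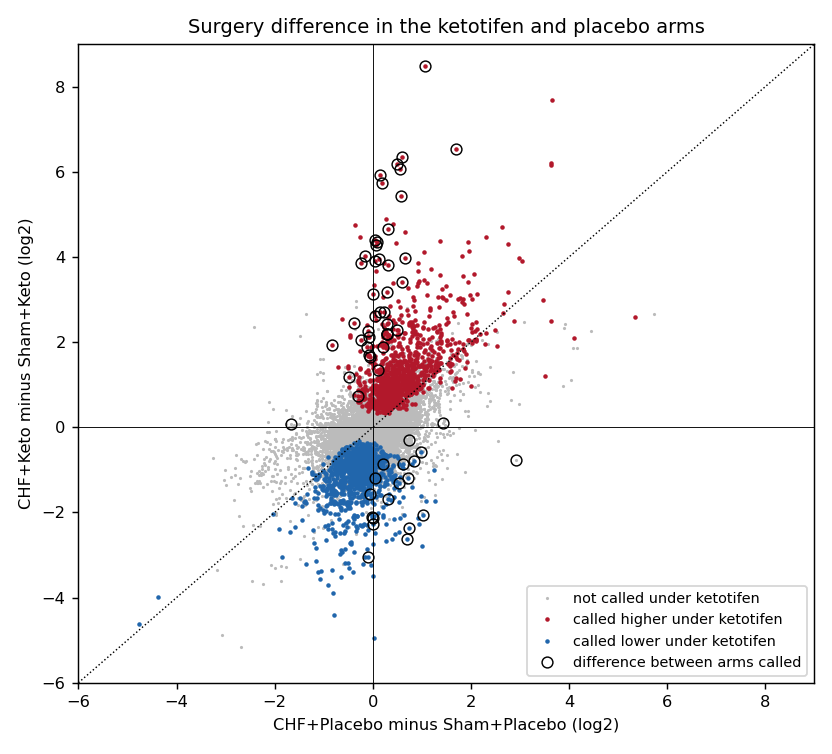
Log2 difference between heart failure and sham lungs for each of 16536 probe sets, in the ketotifen arm (vertical axis) and the placebo arm (horizontal axis), red and blue for probe sets called higher and lower under ketotifen and circled where the difference between the arms was itself called (61 probe sets). Most called points share the sign of both axes (87.6%), and a column of circled points near 0 on the horizontal axis, Il6 at its top, lies high on the vertical axis, where probe sets rose under ketotifen with little placebo difference.

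The difference between the arms was tested as an interaction, the surgery difference under ketotifen minus that under placebo. It was called for 61 probe sets by limma (0.369%, with 1778 before adjustment), 42 positive and 19 negative, and 57 of them were also called under ketotifen. By list, 5 of 21 inflammatory ligands, 4 of 22 immediate early genes and 3 of 15 NF-kB feedback genes were among them, and 0 of 18 macrophage, 0 of 18 proliferation and 0 of 20 lysosomal genes. Leaving out CHF+Placebo lung 1 raised the count to 303, which include all 61, and among the genes added were Vtn (interaction -4.83, adjusted p = 0.000384 in place of 0.271), Cdk1 (2.23, adjusted p = 0.0251 in place of 0.459) and Kdr (-1.70, adjusted p = 0.0195 in place of 0.3). How many genes passed the test of the arms therefore rests on that lung, and the count was 2 without Sham+Keto lung 2 and Sham+Placebo lungs 2 and 3, the arrays of largest beta-actin difference, and 11 without Sham+Keto lungs 1 and 2.

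Among the genes whose difference between the arms was called, Ptgs2 had 4.45, 5.92 and 6.42 in CHF+Placebo lungs and 6.05, 5.38 and 6.08 in Sham+Placebo lungs, which overlap, beside its clear separation under ketotifen (interaction 4.09 ± 0.65, adjusted p = 0.0258). Cyp1a1 was at background in all 6 placebo lungs, between 2.11 and 2.36 (interaction 4.17 ± 0.64, adjusted p = 0.0241). Srxn1 and Fosb likewise stayed at 2.62 to 3.04 in every placebo lung. Cyp1a1, Srxn1 and Fosb passed the filter through the CHF+Keto lungs alone, so the filter itself favoured a difference between the arms for them. Esm1 ran in opposite directions, with a surgery difference of -2.05 under ketotifen and 1.02 under placebo (interaction -3.07 ± 0.50, adjusted p = 0.0293), of which the placebo part was not called. Ifit1 also had its highest values in Sham+Keto lungs 1 and 2, and its interaction was -3.09 ± 0.50.

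Mast cell genes showed no called difference between the arms. Their median surgery difference was 0.99 under ketotifen and 2.85 under placebo, where 5 members were called. The list averaged 7.23, 5.97 and 6.70 in CHF+Keto and 5.67 to 6.001 in Sham+Keto lungs, beside 6.39, 7.67 and 7.25 in CHF+Placebo and 4.91, 4.39 and 5.34 in Sham+Placebo lungs. The sham lungs of the 2 arms thus differed too, with all 3 Sham+Keto means above all 3 Sham+Placebo means. The interaction was -2.92 ± 0.88 for Cpa3 (adjusted p = 0.26) and -2.30 ± 0.51 for Fcer1a (adjusted p = 0.117; 0.0191 without CHF+Placebo lung 1), and these values do not show that the arms were alike. Hbb gave 2.59 under ketotifen and 5.34 under placebo (interaction -2.75 ± 0.90, adjusted p = 0.305).

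**Figure D5:**
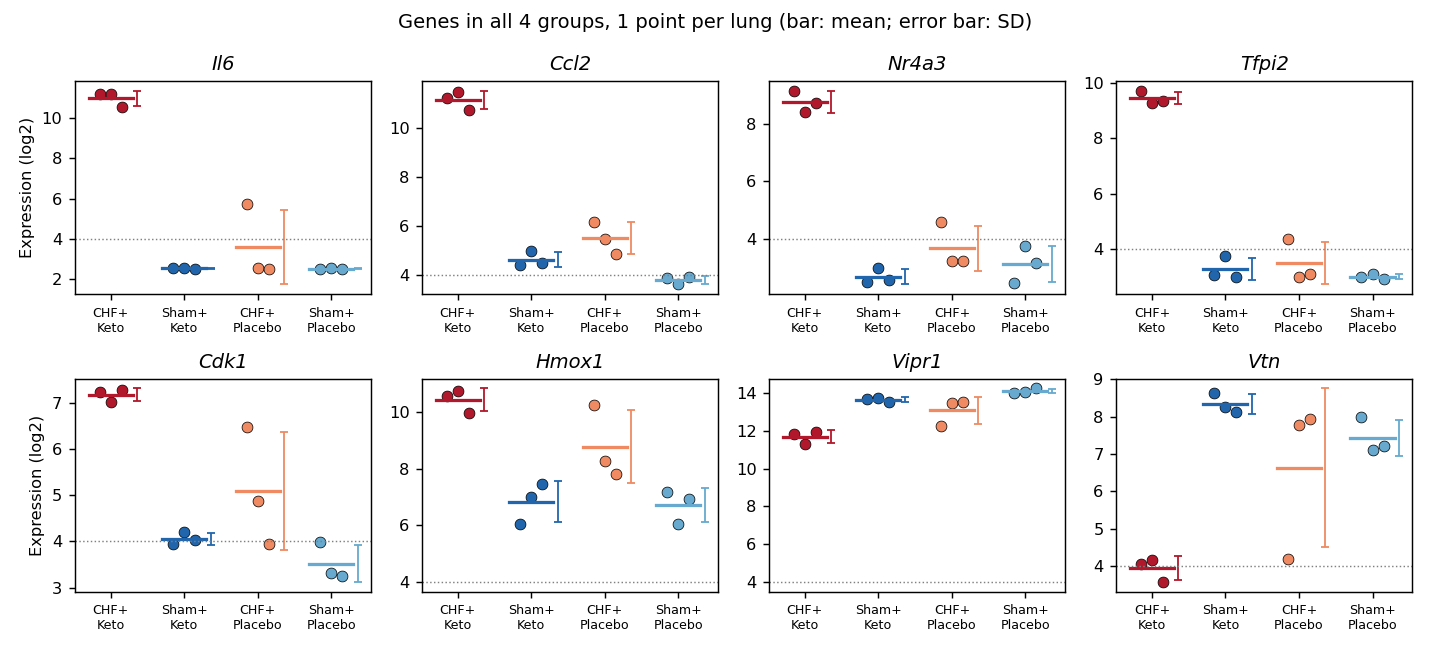
Log2 expression of 8 genes in each lung of the 4 groups (CHF+Keto, Sham+Keto, CHF+Placebo, Sham+Placebo), with the group mean as a bar, the SD (n = 3) as an error bar and a dotted line at log2 of 4; the axes differ between panels and do not start at 0. Il6, Ccl2, Nr4a3 and Tfpi2 are highest in the 3 CHF+Keto lungs, with CHF+Placebo lung 1 next, whereas for Cdk1, Hmox1 and Vtn CHF+Placebo lung 1 stands away from CHF+Placebo lungs 2 and 3 on the side of the CHF+Keto lungs.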

How the data were processed

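Whole-lung RNA of 12 rats had been hybridized by the authors to 1 Affymetrix rat genome array each, after one-cycle labelling per the labels' protocols. The deposited values are on the log2 scale. Per the submitters' processing notes, the authors used R 2.5.0 and GCRMA, which models background from the base content of probes; no source used here gives its settings. Scanner files were not used, and no batch label was available to fit as a block.

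Of 31099 probe sets 57 controls were left out. The platform annotation gave 1 symbol to 20826 of the other 31042, several to 436 and none to 9780. A probe set was kept with a log2 value of at least 4 in at least 3 of 12 arrays, which left 16536, of which 13032 with 1 symbol name 9788 genes. The groups came from the sample titles.

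Limma 3.58.1 in R 4.3.3 fitted 4 group means to all 12 arrays (8 residual degrees of freedom, 10.95 once moderated; eBayes with intensity trend, two-sided). A call needs an adjusted p (Benjamini-Hochberg, all 16536 probe sets) under 0.05. Adjusted p-values and SEs are limma's, SDs are of 3 arrays. The labels give the arrays of a group as separate samples, and p-values measure the spread between them, pooled over the 4 groups. The fit was also run on simulated data with independent noise of equal spread in all 12 arrays, which does not cover arrays that stand apart. Figures used Python 3.11.15 and matplotlib 3.10.9.

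The comparison and the 49 gene lists (1030 entries, 906 on the array, 721 kept) were chosen with earlier results of these data known. The genes named are the 15 of largest difference in each direction among called probe sets with 1 symbol whose groups do not overlap, without symbols that begin with LOC, RGD, MGC or AABR, 1 probe set per gene, and from each list up to 4 members of smallest p and the brightest marker; other list members named were chosen after their values were seen. Lists are described by counts and medians, with no set test. Promoters came from RefSeq's table for GRCr8.

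For same-numbered lungs of the 2 groups the correlations of their deviations from the group means were 0.09, 0.17 and 0.04 for numbers 1 to 3. For lungs of different number they ran from -0.14 to 0.12. With 3 lungs a group these values cannot decide whether the numbers mark pairs. The main fit did not use the numbers as pairs. Alternatives covered the arrays in the fit, the filter, the moderation, array weights (estimated gene by gene, since the REML estimate did not converge), the normalization, the replicate block, averaging of CHF+Keto lungs 1 and 3, and each lung left out.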

Additional observations from a re-analysis of the deposited data

Results flagged for a closer look

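Of the 30 genes of largest difference, 7 also passed limma's test of the difference between the 2 drug arms, the surgery difference under ketotifen minus that under placebo. In log2 units it was 7.41 for Il6 (SE 0.95, adjusted p = 0.00763), 5.77 for Ccl7 (adjusted p = 9.48e-06), 5.70 for Tfpi2, 5.55 for Cxcl2, 5.52 for Nr4a3, 4.83 for Ccl2 and 4.35 for Adamts4. The remaining 23 did not pass it, among them Spp1 (4.03, adjusted p = 0.481) and Areg (3.93, adjusted p = 0.0678). Over all probe sets 61 of 16536 passed (0.369%). The 30 genes were chosen by their ketotifen difference, which is a part of the difference tested. A higher share among them thus follows in part from the choice. For all 7 genes CHF+Placebo lung 1 was the highest of the 6 placebo lungs. For Il6 and Tfpi2 it stood at 5.73 and 4.38, against at most 2.56 and 3.10 in the other 5. Without that lung the 7 differences were 4.80 to 8.48. Ccl7 and Cxcl2 passed the filter through the CHF+Keto lungs alone.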

How the results depend on the processing

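The count of called probe sets, 2145, stayed within 1.5 times under 8 settings, among them the 6 ketotifen arrays alone (2404), a filter at log2 of 6 (2134), quantile normalization (2260), centring on the median (2284) and CHF+Placebo lung 1 left out (2773, added after seeing the data). It was 1156 with no filter, 4139 with array weights, 1139 with a difference of at least 1 required, 953 with CHF+Keto lungs 1 and 3 averaged, 76 without Sham+Keto lungs 1 and 2 (3163 at an unadjusted p under 0.05), 984 without the 3 arrays of largest actin difference (Sham+Keto lung 2, Sham+Placebo lungs 2 and 3), and 766 to 1121 without single lungs. The split of higher and lower moved by over 10 percentage points without Sham+Keto lungs 1 and 2 (73.7% higher, against 49%) and without CHF+Keto lung 2 (61.1%). No gene described by value reversed direction with a call under any of these settings.

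The 61 calls for the difference between arms became 36 with no filter, 1132 with array weights, 37 with the replicate block, 28 with CHF+Keto lungs 1 and 3 averaged, 11 without Sham+Keto lungs 1 and 2, 2 without the arrays of largest actin difference, 303 without CHF+Placebo lung 1 and 26 to 48 without single ketotifen lungs. The replicate block gave 1899 calls for the main comparison and ended the call of 2 of the 30 genes of largest difference. Averaging CHF+Keto lungs 1 and 3 ended the call of 4 of these 30, and so did dropping the filter. Leaving out single ketotifen lungs ended 4 to 7 of the 30 calls. More of the 30 lost the call in the settings that left 1 lung in a group. Of the list members, 210 were called; the count was 137 with no filter, 130 with CHF+Keto lungs 1 and 3 averaged, 24 without Sham+Keto lungs 1 and 2 and 128 to 140 without single lungs. The share of calls with the same sign in the placebo arm, 87.6%, was 74 to 88.5% under the other settings. The causes of these shifts were not tested. With 3 lungs a group, signals near background give a direction but no reliable size.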
